A study of Mus musculus with 12 samples.

Results

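Neutrophils, a type of white blood cell, were followed here through 10 of their genes. These are among the 44345 genes listed in a table of mouse dorsal root ganglion RNA. The members were chosen by name, with earlier results of these data known. They are the rows of the table that carry their symbols, and all 10 were found once. They comprise 4 markers of mature neutrophils (S100a8, S100a9, Ly6g and Csf3r) and 6 genes for granule proteins that are transcribed mainly while the cells are still precursors in the bone marrow (Lcn2, Camp, Ngp, Ltf, Prtn3 and Mpo).

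The study asked what indole-3-propionic acid (IPA), a tryptophan metabolite of gut bacteria, and a crush of the sciatic nerve did to the ganglia whose axons run in that nerve. All mice were C57BL/6, aged 6 to 8 weeks. The 4 groups, of 3 libraries each, were vehicle (PBS gavage daily for 10 days, no crush), IPA (20 mg/kg by gavage daily for 10 days, no crush), crushed vehicle (the PBS gavage, then a sciatic nerve crush, ganglia taken 3 days later) and crushed IPA (the IPA gavage, then the crush and 3 further days of IPA). Each library was made from the pooled L4 to L6 ganglia of 2 mice, so no value belongs to 1 animal. The labels do not make clear whether PBS was also given after the crush, and they give no sex, batch or sham operation. Groups without a crush are called intact below.

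Neutrophils develop in the bone marrow and load their granules in stages. Myeloblasts and promyelocytes transcribe the primary (azurophil) granule genes, among them Mpo and Prtn3. Myelocytes and metamyelocytes then transcribe the secondary granule genes, among them Ltf, Camp, Ngp and Lcn2. These transcripts are largely lost as the cell matures, although Lcn2 is also induced in other cell types by inflammation. Ly6g appears on the mouse neutrophil surface during late maturation, Csf3r is the receptor for the growth factor G-CSF, and S100a8 and S100a9 form calprotectin, the main protein of the neutrophil cytosol. Neutrophils enter a crushed nerve soon after injury, and ganglia also hold those in the blood inside their vessels.

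All members are protein-coding, and their places are those of the GENCODE M21 annotation (GRCm38). S100a8 (chr3:90668978-90670035, plus strand) and S100a9 (chr3:90692632-90695721, minus strand) are 22.6 kb apart. Camp (chr9:109847379-109849617, minus strand), Ngp (chr9:110419747-110423012, plus strand) and Ltf (chr9:111019271-111042767, plus strand) lie along 1 stretch of chromosome 9, with gaps of 570.1 and 596.3 kb. The others are Ly6g (chr15:75155240-75159126, plus strand), Csf3r (chr4:126024550-126044440, plus strand), Lcn2 (chr2:32384633-32388252, minus strand), Prtn3 (chr10:79874476-79883174, plus strand) and Mpo (chr11:87793581-87804413, plus strand). An exon of Prtn3 overlaps Plppr3 on the opposite strand, and whether reads were counted by strand is not given in the sources used here. Values of Prtn3 are therefore uncertain. Mpo overlaps the antisense gene Gm11505, which was at 0 in every library.

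The promoters of 5 members are shown because the results turn on how these genes moved: S100a8 and S100a9 rose and fell together, Ngp and Camp did so with them, and Ly6g separated by crush. Each is the 250 bases before and 50 bases after the first listed RefSeq start site (GRCm38.p6), written 5′ to 3′ on the strand of the gene. Capitals mark matches to TTNCNNAA, a core of the site bound by C/EBP factors, which drive granulocyte genes, on either strand.

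S100a8 (chr3:90668821-90669120, plus strand): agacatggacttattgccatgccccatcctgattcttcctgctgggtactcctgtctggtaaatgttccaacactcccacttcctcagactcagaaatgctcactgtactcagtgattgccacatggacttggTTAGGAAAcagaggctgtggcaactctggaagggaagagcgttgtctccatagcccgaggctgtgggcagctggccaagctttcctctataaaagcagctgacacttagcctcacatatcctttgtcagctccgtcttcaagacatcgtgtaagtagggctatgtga

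S100a9 (chr3:90695672-90695971, minus strand): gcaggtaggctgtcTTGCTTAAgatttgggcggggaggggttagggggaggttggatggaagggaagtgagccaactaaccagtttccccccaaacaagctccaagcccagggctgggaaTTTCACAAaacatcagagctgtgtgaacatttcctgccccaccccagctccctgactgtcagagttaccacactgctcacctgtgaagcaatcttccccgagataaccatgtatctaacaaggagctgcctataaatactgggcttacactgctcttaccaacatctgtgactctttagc

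Ngp (chr9:110419558-110419857, plus strand): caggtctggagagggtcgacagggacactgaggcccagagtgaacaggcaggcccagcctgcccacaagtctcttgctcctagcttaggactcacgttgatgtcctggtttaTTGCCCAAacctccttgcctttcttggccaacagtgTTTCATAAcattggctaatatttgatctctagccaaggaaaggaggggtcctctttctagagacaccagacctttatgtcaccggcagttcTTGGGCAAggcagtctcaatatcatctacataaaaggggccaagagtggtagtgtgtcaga

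Camp (chr9:109849407-109849706, minus strand): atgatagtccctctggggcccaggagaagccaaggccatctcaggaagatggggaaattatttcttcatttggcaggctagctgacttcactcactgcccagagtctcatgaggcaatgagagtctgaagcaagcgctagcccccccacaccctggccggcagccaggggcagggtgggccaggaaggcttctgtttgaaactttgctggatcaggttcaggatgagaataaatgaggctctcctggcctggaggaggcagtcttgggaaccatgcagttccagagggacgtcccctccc

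Ly6g (chr15:75155011-75155310, plus strand): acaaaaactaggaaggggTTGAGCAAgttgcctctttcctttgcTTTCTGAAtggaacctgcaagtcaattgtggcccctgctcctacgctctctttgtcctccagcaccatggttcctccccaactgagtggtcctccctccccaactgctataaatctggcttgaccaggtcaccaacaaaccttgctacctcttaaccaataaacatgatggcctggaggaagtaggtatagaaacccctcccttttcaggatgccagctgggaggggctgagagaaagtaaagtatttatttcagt

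A match to the C/EBP core was found in 6 of the 10 member promoters (S100a8, S100a9, Ly6g, Lcn2, Ngp and Ltf), against 40.7% of 32851 promoters of the same length. GAGGAA, a core of the site bound by PU.1, a myeloid transcription factor, was found on either strand in 7 of 10, against 28.3% of all promoters. TTCNNNGAA, the core bound by STAT factors, was found in 0 of 10 (8.30% of all), and TGANTCA, the AP-1 core, in 0 of 10 (7.81% of all). The motifs were searched on both strands and none of these matches overlaps one of another motif in the stretches shown. Within the windows shown, Ngp held 3 C/EBP matches, S100a9 and Ly6g held 2 each, S100a8 held 1 and Camp held none. A match is a string of letters and not evidence of binding.

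Values are given in the deposited unit, which behaves as CPM (read counts scaled to a fixed library total) without division by gene length, so a value is a share of a library and not a level per transcript length. The libraries held 40938034 to 62501969 recovered reads, and 1 read was worth 0.0130 to 0.0199 of the unit. Member values rested on 7 reads (Prtn3 in vehicle replicate 2) to 2266 reads (Ngp in crushed IPA replicate 3). Replicates of a group differed by more than counting error, with a chi-square of 4.80 to 28.3 per degree of freedom over their pairs. Crushed vehicle replicate 1 stood apart from its group, and crushed IPA replicate 3 held the highest value of 9 of the 10 members. Known injury genes were higher in all crushed libraries, with 7 of 7 crush response markers called (Atf3 at 10.5 to 12.4 in intact and 465.5 to 525.1 in crushed libraries). The labelled tissue's marker Tubb3, a neuronal tubulin, was at 2548 or more in every library.

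Divided by the length of their exons, the members spanned a wide range in the 6 intact libraries. S100a9 was highest at 16.2 ± 7.11 per kb (SD, n = 6), followed by Ngp (7.60 ± 3.99), S100a8 (7.47 ± 3.48), Camp (2.81 ± 1.34), Ltf (2.11 ± 0.98) and Lcn2 (1.52 ± 0.62). Csf3r (0.392 ± 0.061), Prtn3 (0.336 ± 0.211), Mpo (0.252 ± 0.152) and Ly6g (0.166 ± 0.036) were the 4 lowest. Of the neighbours in this order, only Lcn2 and Csf3r had ranges that did not overlap. S100a9 was nonetheless above Ngp in 6 of 6 intact libraries, while Ngp was above S100a8 in 3 of 6. After crush Ly6g changed place: it was below Mpo in 5 of 6 intact libraries and above it in 6 of 6 crushed ones. Other neighbours shifted less. Csf3r was above Prtn3 in 4 of 6 intact and 2 of 6 crushed libraries, and Ngp was above S100a8 in 2 of 6 crushed ones.

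The values by library show 2 kinds of pattern. S100a8, which encodes the smaller subunit of calprotectin, was 6.73, 2.60 and 8.85 in vehicle, 2.66, 5.56 and 4.71 in IPA, 7.90, 13.3 and 6.20 in crushed vehicle, and 9.13, 6.04 and 26.9 in crushed IPA. Crushed IPA replicate 3 was 3.55 times the mean of the other replicates of its group, and 3 of 6 crushed libraries were above the highest intact one, so intact and crushed libraries overlapped. Its partner S100a9 was 11.0, 4.06 and 13.8 in vehicle, 4.98, 9.35 and 7.37 in IPA, 12.8, 21.9 and 12.3 in crushed vehicle, and 15.9, 9.27 and 37.2 in crushed IPA. The same libraries were high and low for both genes, and the ratio of S100a9 to S100a8 stayed between 1.38 and 1.98 in all 12.

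Ly6g, a surface protein used in mice to identify neutrophils, separated by crush. It was 0.154, 0.152 and 0.132 in vehicle, 0.173, 0.211 and 0.114 in IPA, 1.55, 2.09 and 1.65 in crushed vehicle, and 1.63, 1.26 and 2.04 in crushed IPA. Every crushed library was above every intact one, with 78 to 125 reads against 8 to 14. Of the 10 members only Ly6g separated in this way, where 18.2% of all genes tested had every crushed library above every intact one. The spread was also smaller: the coefficient of variation over the 6 crushed libraries was 18.3% for Ly6g and 68.8% for S100a8. Csf3r varied little, at 1.48, 1.08 and 1.51 in vehicle, 1.53, 1.68 and 1.22 in IPA, 1.47, 2.18 and 1.74 in crushed vehicle, and 1.56, 1.54 and 2.78 in crushed IPA. Its groups overlapped, and 3 of 6 crushed libraries were above the highest intact one.

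Among the secondary granule genes, Ngp (neutrophilic granule protein) was 11.0, 4.15 and 17.3 in vehicle, 5.40, 11.1 and 6.75 in IPA, 10.2, 20.5 and 14.0 in crushed vehicle, and 16.7, 8.83 and 41.2 in crushed IPA. Ltf, which encodes the iron-binding protein lactoferrin, was 7.50, 3.74 and 12.7 in vehicle, 4.52, 9.47 and 5.72 in IPA, 9.17, 17.1 and 10.5 in crushed vehicle, and 14.3, 7.17 and 34.7 in crushed IPA. Lcn2, which encodes a protein that withholds iron from bacteria by binding their siderophores, was 3.95, 2.18 and 6.07 in vehicle, 2.39, 5.65 and 3.63 in IPA, 5.43, 10.1 and 6.06 in crushed vehicle, and 8.27, 5.43 and 19.9 in crushed IPA. In all 3 genes vehicle replicate 2 was lowest and crushed IPA replicate 3 highest, as they were for S100a8 and S100a9. Camp, which encodes the antimicrobial peptide precursor cathelicidin, was 2.25, 0.967 and 3.86 in vehicle, 1.32, 2.46 and 1.92 in IPA, 1.67, 4.94 and 3.43 in crushed vehicle, and 4.30, 2.45 and 7.55 in crushed IPA.

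The primary granule genes were low. Prtn3, which encodes the serine protease proteinase 3, was 0.385, 0.133 and 0.943 in vehicle, 0.441, 1.10 and 0.484 in IPA, 0.656, 0.962 and 1.05 in crushed vehicle, and 1.24, 1.08 and 2.29 in crushed IPA, resting on 7 to 126 reads. Mpo, which encodes the enzyme myeloperoxidase, was 0.617, 0.209 and 1.62 in vehicle, 0.914, 1.28 and 0.527 in IPA, 0.457, 1.16 and 1.16 in crushed vehicle, and 0.900, 1.16 and 3.05 in crushed IPA. For Mpo only crushed IPA replicate 3 was above the highest intact library, and for Prtn3 2 crushed libraries were. In the plot of the members by library, Ly6g is thus the member whose groups separate.

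**Figure D1:**
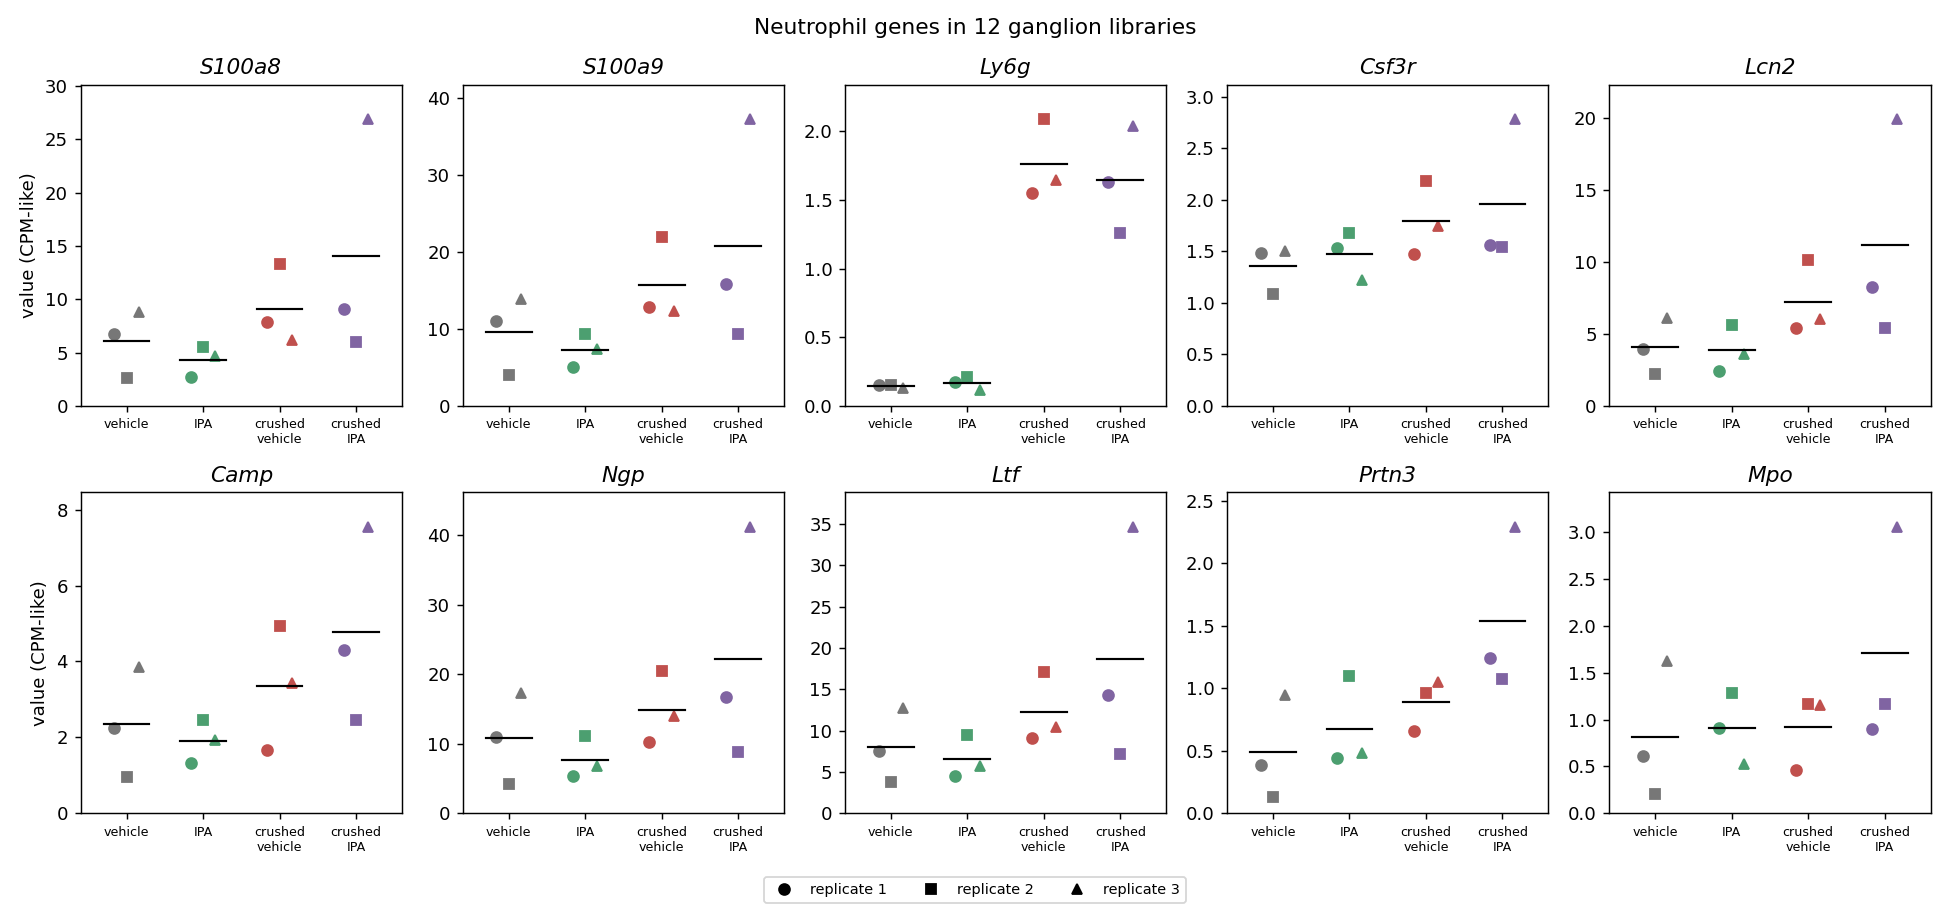
Value (CPM-like, linear axis from 0) of each of the 10 genes in each of the 12 libraries, with marker shape giving the replicate and a line at each group's mean. Crushed IPA replicate 3 is the highest point in 9 panels, and Ly6g is the panel in which all 6 crushed libraries (1.26 to 2.09) lie above all 6 intact ones (0.114 to 0.211).

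Sciatic crush, averaged over vehicle and IPA, was tested first, since it uses all 12 libraries. Crushed libraries were also taken 3 days later, with no sham operation labelled, and those of IPA mice after 3 further days of IPA. These differences cannot be told apart from the crush. Neutrophil genes were higher after crush in a limma fit across 15603 genes on log2(value + 0.5). Of the 10 members, 8 passed a Benjamini-Hochberg adjusted p of 0.05, all of them upward, where 28.8% of all genes tested did so. The members and the gene lists below were chosen with earlier results of these data known. Their counts are therefore set beside the share of all genes only as a description. The median log2 change of the members was 0.94, beside -0.01 for all genes tested. All 10 members passed the filter on low values (at least 0.5 in at least 3 libraries), but Ly6g did so only through its crushed libraries, and Prtn3 reached 0.5 in 2 intact and 6 crushed libraries, so that their passing and their rise are not separate facts. Of the other 8 members 6 were called. In bulk tissue, more neutrophils, more RNA per neutrophil and RNA from other cells cannot be told apart.

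Of the mature markers 3 of 4 were called higher, where 28.8% of all genes tested were. Ly6g rose by 1.74 ± 0.10 (SE) on the log2 scale (limma adjusted p = 2.34e-09). Its mean value went from 0.156 ± 0.034 to 1.70 ± 0.31 (SD, n = 6 each), a ratio of 10.9, which the added constant compresses on the fitted scale. S100a9 rose by 1.03 ± 0.33 (limma adjusted p = 0.0144) and S100a8 by 1.00 ± 0.34 (limma adjusted p = 0.0222), with mean values 2.16 and 2.23 times those of intact libraries. Csf3r changed by 0.30 ± 0.13 (95% interval 0.02 to 0.57, limma adjusted p = 0.0598) and was not called, although edgeR (adjusted p = 0.0474) and DESeq2 (adjusted p = 0.0381) on recovered reads called it.

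Of the precursor granule genes 5 of 6 were called higher, again beside 28.8% of all genes tested. Lcn2 rose by 1.04 ± 0.30 (limma adjusted p = 0.00785), Ltf by 0.96 ± 0.34 (limma adjusted p = 0.0271), Ngp by 0.92 ± 0.36 (limma adjusted p = 0.0413) and Camp by 0.75 ± 0.30 (limma adjusted p = 0.0407). Prtn3 rose by 0.68 ± 0.21 (limma adjusted p = 0.0113), while the gene on its other strand, Plppr3, rose by 0.36 ± 0.08 (limma adjusted p = 0.00172) and reached a value of 22.8; the part of such reads in the Prtn3 value was not tested. Mpo was at 0.39 ± 0.28 (95% interval -0.21 to 0.99, limma adjusted p = 0.248), and with array weights at 0.43 (limma adjusted p = 0.0409). The secondary granule genes thus moved by about as much as S100a8 and S100a9.

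Several of these calls changed when 1 library was left out. The number of members called fell from 8 to 4 without vehicle replicate 2, without IPA replicate 1, without crushed vehicle replicate 2 or without crushed IPA replicate 3, and to 5 without IPA replicate 3. It was 6 without vehicle replicate 1 or crushed vehicle replicate 3 and 7 without crushed IPA replicate 1. Ly6g, S100a9, Lcn2 and Prtn3 were called in 12 of 12 fits that left out 1 library, S100a8 in 8, Ltf in 7, and Camp and Ngp in 4 each. Without crushed IPA replicate 3, S100a8 was at 0.70 (limma adjusted p = 0.0518), Ltf at 0.67 (limma adjusted p = 0.0676), Ngp at 0.64 (limma adjusted p = 0.109) and Camp at 0.57 (limma adjusted p = 0.110). Ly6g was at 1.67 to 1.80 across the same 12 fits.

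Taken separately, crush called fewer members. Under vehicle, Ly6g alone was called (1.80 ± 0.14, limma adjusted p = 1.30e-07), where 23.6% of all genes tested were called higher. The other 9 members were at 0.22 to 0.80, with none called. Under IPA, 5 members were called higher (21.2% of all genes tested): Ly6g at 1.67 ± 0.14 (limma adjusted p = 3.03e-07), S100a8 at 1.37 ± 0.49 (limma adjusted p = 0.0347), Lcn2 at 1.28 ± 0.42 (limma adjusted p = 0.0236), S100a9 at 1.28 ± 0.46 (limma adjusted p = 0.0375) and Prtn3 at 0.79 ± 0.29 (limma adjusted p = 0.0407). That count went to 1 without crushed IPA replicate 3, without IPA replicate 1 or without IPA replicate 3, to 3 without crushed IPA replicate 1, and to 8 without vehicle replicate 2, vehicle replicate 3 or crushed IPA replicate 2.

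That more members passed under IPA than under vehicle does not show that IPA changed the response, and the difference itself was tested as an interaction. The interaction was called for 0 of 10 members and for 0.0% of all genes by limma (327 genes at an unadjusted p under 0.05; DESeq2 called 3 genes and edgeR 0, none a member). The estimates ran from -0.13 for Ly6g to 0.74 for S100a8, whose 95% interval was -0.74 to 2.22. With intervals this wide, neither a larger nor a smaller response of S100a8 under IPA was detectable.

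**Figure D2:**
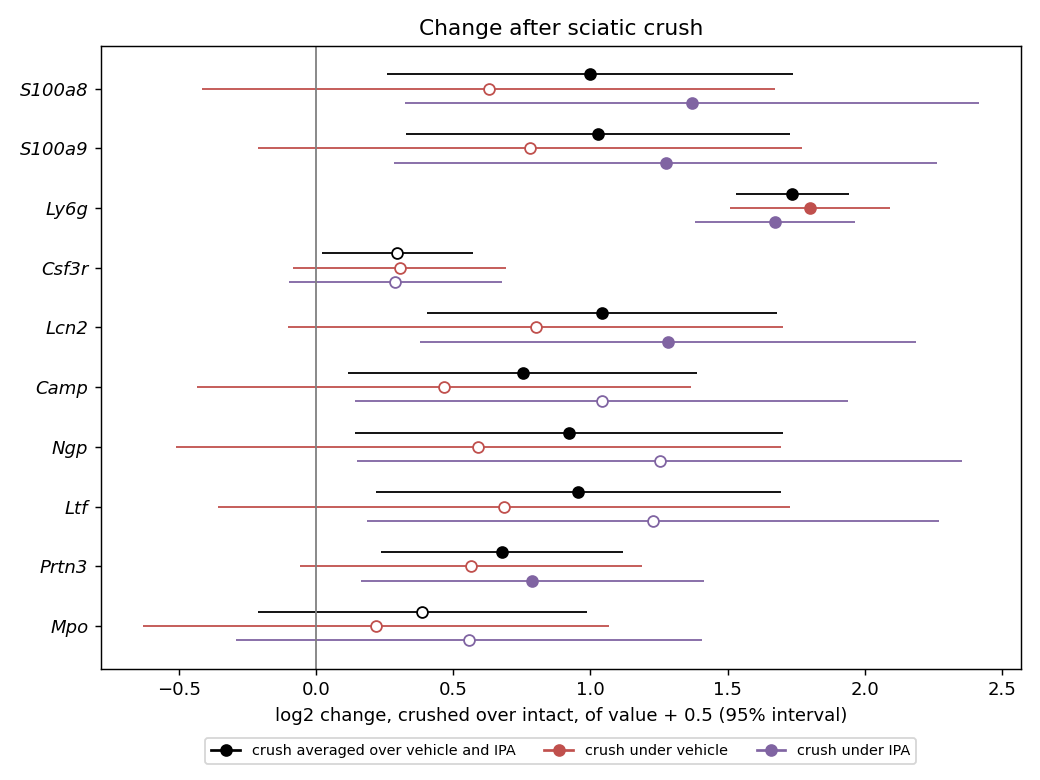
Log2 change with crush of value + 0.5 (x axis) for each gene, with 95% intervals; filled points passed a limma adjusted p of 0.05. Ly6g is at 1.67 to 1.80 with short intervals in all 3 comparisons, while the other called genes have intervals that begin between 0.12 and 0.40 in the averaged comparison.

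IPA itself was compared with vehicle with and without crush. No member was called in either comparison, nor was any gene by limma (0.0% of genes tested; 1902 genes at an unadjusted p under 0.05 without crush and 1258 after it). DESeq2 called 3 genes without crush and 15 after it, and edgeR 0 in both, none of them a member. Without crush, S100a8 was at -0.36 (95% interval -1.40 to 0.69), Ngp at -0.32 (-1.42 to 0.79) and Ly6g at 0.04 (-0.25 to 0.33). After crush, S100a8 was at 0.38 (95% interval -0.66 to 1.43), Ngp at 0.35 (-0.76 to 1.45), Mpo at 0.55 (-0.30 to 1.40) and Ly6g at -0.09 (-0.38 to 0.21). On the fitted scale Ly6g thus had the narrowest interval of these, and the others allow changes of more than 1. The added 0.5 compresses changes of a gene as low as Ly6g, at 0.114 to 0.211 in intact libraries. Its intervals therefore do not bound its fold change as tightly as they appear to.

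For 6 members (S100a8, S100a9, Csf3r, Lcn2, Ngp and Ltf) the sign of the estimate after crush turned on 1 library, with no call in either case. The crushed IPA means of S100a8 and Ngp were 14.0 ± 11.3 and 22.2 ± 16.9 (SD, n = 3), above those of crushed vehicle at 9.12 ± 3.69 and 14.9 ± 5.20. Without crushed IPA replicate 3 they were 7.58 and 12.8, below crushed vehicle. Ltf went from 18.7 to 10.8, against 12.2 in crushed vehicle, and Lcn2 from 11.2 to 6.85, against 7.21. The other 4 members kept their sign without that library, with log2 estimates of 0.27 for Prtn3, 0.14 for Mpo, 0.07 for Camp and -0.22 for Ly6g, none of them called.

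Mature markers and precursor granule genes were then set against each other within each library. The summed value of the 6 precursor granule genes divided by that of the 4 mature markers is not a ratio of cells, since the genes differ in length and level, but it can be followed from library to library. It was 1.33, 1.44 and 1.75 in vehicle, 1.61, 1.85 and 1.42 in IPA, 1.16, 1.39 and 1.65 in crushed vehicle, and 1.62, 1.44 and 1.58 in crushed IPA. The groups overlapped, with a median of 1.52 in intact and 1.51 in crushed libraries, while the precursor sum itself ranged from 11.4 to 108.6. S100a8 and S100a9 supply most of the mature sum, so this ratio says little of Ly6g.

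Ly6g was therefore also divided by S100a8 and by Ngp, a choice made after its values were seen. Per 100 of S100a8, Ly6g was 2.29, 5.84 and 1.50 in vehicle, 6.51, 3.80 and 2.42 in IPA, 19.6, 15.7 and 26.6 in crushed vehicle, and 17.9, 20.9 and 7.57 in crushed IPA. Every crushed library was above every intact one. The mean log2 ratio of Ly6g to S100a8 was higher by 2.37 in crushed libraries, a factor of 5.18, and that of Ly6g to Ngp by 2.49, a factor of 5.61. These are given with no test, since Ly6g was taken for the ratio because its groups separate. For Ngp to S100a8 the difference was -0.11, and the range of the ratio was 1.43 to 2.03 in intact and 1.30 to 2.25 in crushed libraries. Csf3r, another of the mature markers, went the other way from Ly6g. Per 100 of S100a8 its median was 28.1 in intact and 17.9 in crushed libraries, with overlapping ranges (17.0 to 57.4 and 10.3 to 28.2).

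**Figure D3:**
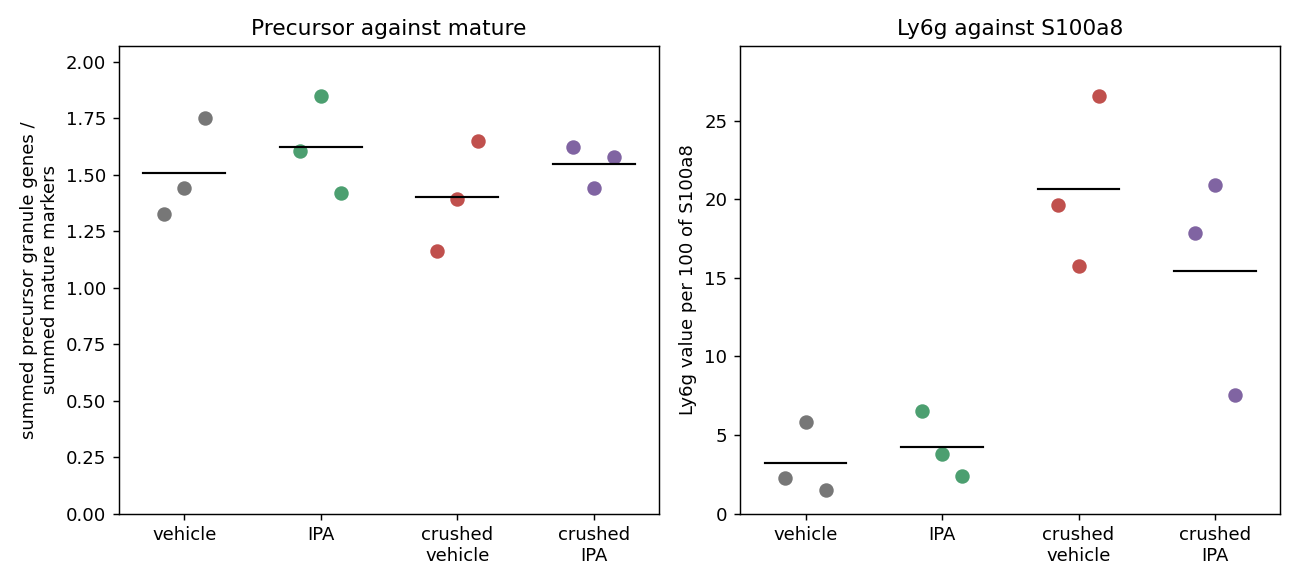
Left, the summed value of precursor granule genes divided by that of mature markers, and right, Ly6g per 100 of S100a8, in each library (points) with group means (lines), both axes from 0. The left ratio is 1.16 to 1.85 with overlapping groups, and the right one is 1.50 to 6.51 in intact and 7.57 to 26.6 in crushed libraries.

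How the members moved among themselves was described by correlations of log2(value + 0.5) over the 12 libraries, which share depth and pooling within each library. S100a8, S100a9, Lcn2, Camp, Ngp and Ltf formed a tight set, with r of 0.92 to 0.99 over their 15 pairs. After each group's mean was removed the same pairs were at 0.87 to 0.99, so they also moved together between replicates of a group. Prtn3 and Mpo were at 0.72 to 0.91 with that set and with each other, and at 0.73 to 0.92 without group means. Csf3r was at 0.83 to 0.89 with the others besides Ly6g, and at 0.77 to 0.87 without group means. Ly6g was at 0.39 to 0.74 with the other 9 and at 0.49 to 0.82 without group means, so it too varied with them between replicates of a group.

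**Figure D4:**
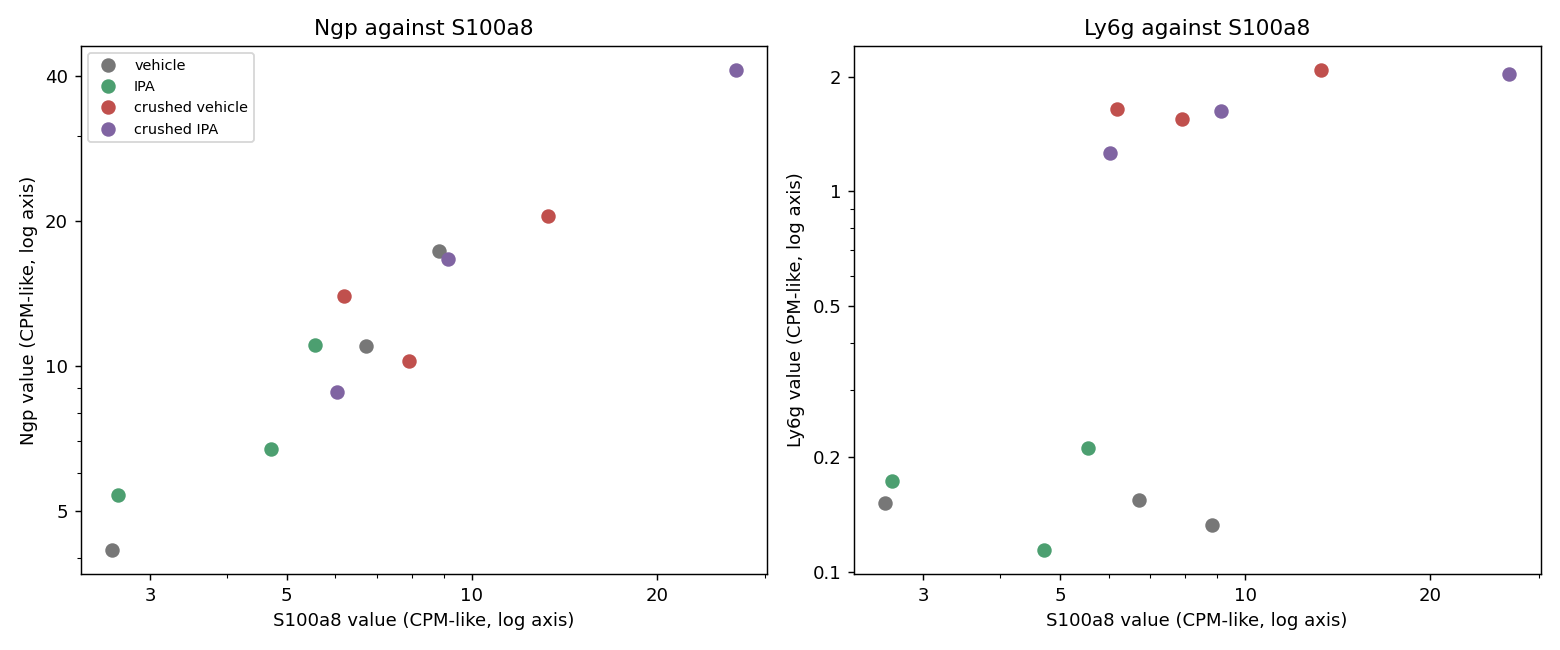
Ngp (left) and Ly6g (right) against S100a8 in the 12 libraries, all axes logarithmic and CPM-like, coloured by group. Ngp follows S100a8 along 1 line from 2.60 and 4.15 to 26.9 and 41.2, whereas Ly6g splits into intact libraries at 0.114 to 0.211 and crushed ones at 1.26 to 2.09. Within groups Ly6g also varied with S100a8 (r = 0.67 once group means were removed).

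Genes most like each pattern over the 12 libraries were listed for 4 members. For S100a8 they were S100a9 (r = 0.99), Ifitm6 (0.97), Ltf (0.97), Lcn2 (0.97) and Retnlg (0.97). Those of Lcn2 were Ltf (r = 0.98), S100a9, S100a8, Ngp and Ifitm6 (0.96 to 0.97). Ly6g was instead most like Gm11424, Tmbim1, Plin2, Pdlim1 and Lgals1 (r = 0.99 each), which differ widely in level and of which none is a member; their crush changes were 0.59 to 2.00. For Prtn3 the list was Ltb4r1 (r = 0.96), Pglyrp1 (0.95), Ptpn7 (0.94), Kifc1 (0.93) and Cd81 (0.93). With group means removed the lists differed. Those nearest S100a8 were then S100a9, Slc50a1, Retnlg, Emd and Lcn2 (r = 0.97 to 0.99), and those nearest Lcn2 were Ltf, Fgr, Ngp, Prg2 and S100a9 (0.97 to 0.99). For Ly6g they were Cd84, Ang, Nle1, Armc2 and Emilin2 (0.89 to 0.91). For Prtn3 they were Def8, Penk, Pnp, Hadha and Capn9 (0.95 to 0.97), none of them a member.

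Other genes of mature neutrophils were read from a list of 25, of which 16 could be tested. After crush 12 were called higher and none lower, with a median of 0.56. Of all genes tested, 28.8% were called higher and 30.6% lower. Lrg1, which encodes a leucine-rich glycoprotein of neutrophil granules that other tissues also make, rose by 1.75 ± 0.14 (1.59 to 3.43 in intact, 6.48 to 11.4 in crushed libraries). Itgam, an integrin chain shared with macrophages, rose by 1.55 ± 0.12, and Hdc, the histamine-forming enzyme, by 1.40 ± 0.08. Stfa2, a cysteine protease inhibitor of mouse neutrophils, was at most 0.0158 in intact libraries and 0.425 to 0.716 in crushed ones (1.08 ± 0.09). Like Ly6g it passed the filter only through crushed libraries. Cxcr2, the receptor through which neutrophils follow CXC chemokines, rose by 0.45 ± 0.15 (limma adjusted p = 0.0208). Mxd1, a transcriptional repressor, was at -0.12 ± 0.07 (limma adjusted p = 0.135). The count of 12 went to 6 without crushed vehicle replicate 2, to 7 without crushed IPA replicate 3, and to 8 without vehicle replicate 2 or IPA replicate 1.

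Of 15 other granule genes 11 could be tested, and 8 rose and 1 fell (median 0.73), where 28.8% of all genes tested were called higher and 30.6% lower. The gene that fell was Ms4a3, a marker of granulocyte and monocyte progenitors, named here for that reason, at 3.53 to 4.40 in intact and 2.61 to 3.90 in crushed libraries (-0.25 ± 0.08, limma adjusted p = 0.0216). It was not called without vehicle replicate 3, IPA replicate 1, crushed vehicle replicate 3 or crushed IPA replicate 1. The largest changes were those of Anxa1 (2.95 ± 0.08) and Serpinb1a (2.38 ± 0.06), which many cells make; Serpinb1a was at 87.5 to 97.4 in intact libraries and 420.1 to 559.3 in crushed ones. The NADPH oxidase subunits Cyba (0.79 ± 0.12) and Cybb (0.73 ± 0.13), shared with macrophages, also rose. Elane, the primary granule protease next to Prtn3 in the genome, was at 0.152 to 0.976 in intact and 0.159 to 2.15 in crushed libraries and was not called (0.48 ± 0.26, limma adjusted p = 0.128). Ctsg, the primary granule protease cathepsin G, was too low to test, at 0.0379 to 0.364 and 0.182 to 0.582.

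Transcription factors of granulocytes were measured in 9 genes, of which 6 could be tested, with 4 higher and 1 lower after crush. The counts in this paragraph stand beside 28.8% of all genes tested called higher and 30.6% lower. Cebpd rose by 1.02 ± 0.09 and Spi1, the gene of PU.1, by 1.11 ± 0.14, while Runx1 fell by 0.35 ± 0.04 on the log2 scale. Cebpe, which drives secondary granule genes, was too low to test, at 0.231 to 0.463 in intact and 0.278 to 0.80 in crushed libraries. Of 21 genes that recruit or arrest neutrophils, 10 could be tested and 8 rose. Il6, a cytokine, was at most 0.158 in intact libraries and 0.978 to 1.27 in crushed ones (1.43 ± 0.08), and like Ly6g it passed the filter only through the crushed libraries. Pf4, a platelet chemokine also made by macrophages, rose by 1.32 ± 0.12, and C5ar1, the receptor of complement C5a, by 1.15 ± 0.13. The neutrophil chemokines Cxcl1 (at most 0.227) and Cxcl2 (at most 0.0652) and the growth factor Csf3 (at most 0.0837) were near 0 in all libraries and could not be tested.

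Other genes of the Ly6 family were compared because reads of such related genes can be shared. Ly6a (0.85 ± 0.12), Ly6e (0.70 ± 0.08) and Ly6c1 (0.54 ± 0.09) rose, and Ly6h fell by 0.92 ± 0.09 on the log2 scale. Ly6c2, a monocyte marker and a close relative of Ly6c1, was at 0.45 ± 0.22 (limma adjusted p = 0.0941), and Ly6i was at most 0.0945 in any library. How reads were split among these genes is not given in the sources used here.

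Markers of other cells that the ganglia could hold moved in different ways, where 28.8% of all genes tested were called higher and 30.6% lower. Macrophage markers rose for 13 of 14 genes, with a summed value of 83.7 to 115.3 in intact and 224.4 to 272.9 in crushed libraries (Mrc1 at 1.81 ± 0.08, Csf1r at 1.32 ± 0.08). Monocyte markers were at 14.1 to 20.7 and 32.4 to 60.4 with 5 of 7 higher, a count of 3 without crushed IPA replicate 3 and also without vehicle replicate 1 or 2, IPA replicate 1 or 3, or crushed vehicle replicate 2. Erythroid markers were at 65.1 to 134.7 in intact and 68.2 to 120.3 in crushed libraries, with 1 of 11 higher (Car1, 2.32 ± 0.11), none lower and none of the 14 at 0 throughout; 3 were called lower without vehicle replicate 2. Marrow B cell precursor markers were at 1.50 to 3.46 and 1.47 to 1.85, with 1 of 2 tested genes lower (Cd79a), and Rag1 was at 0.0827 to 0.347 and 0.140 to 0.327. The part of these cells in the member values was not tested.

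Erythroid markers varied with the granule genes between replicates of a group. After each group's mean was removed, all 14 erythroid markers had r of 0.68 to 0.92 with Ngp over the 12 libraries, where 13.6% of all genes tested had r over 0.5. The lowest library of each of the 4 groups was the same for the erythroid sum and the precursor granule sum. Their highest library was the same in 3 of 4 groups, which was not particular to erythroid markers. It was the same in 4 of 4 for macrophage, monocyte and marrow B cell precursor sums, and in 3 of 4 for crush response sums. For those lists the lowest library was the same in 1, 3, 1 and 2 groups, respectively. Hbb-bs, a beta globin gene, was at -0.13 ± 0.17 after crush and Hba-a1, an alpha globin gene, at -0.21 ± 0.16, neither called. For macrophage markers the median r with Ngp was 0.31, with 5 of 14 over 0.5, and for crush response markers 0 of 7 were over 0.5. For monocyte markers the median r was 0.82, with 6 of 7 over 0.5 (this list overlaps the neutrophil lists). For platelet and megakaryocyte markers 5 of 8 were over 0.5, for marrow B cell precursor markers 3 of 8, and for bone markers 1 of 9. Whether blood or marrow retained in the pooled tissue contributes to the shared variation of the members was not tested.

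**Figure D5:**
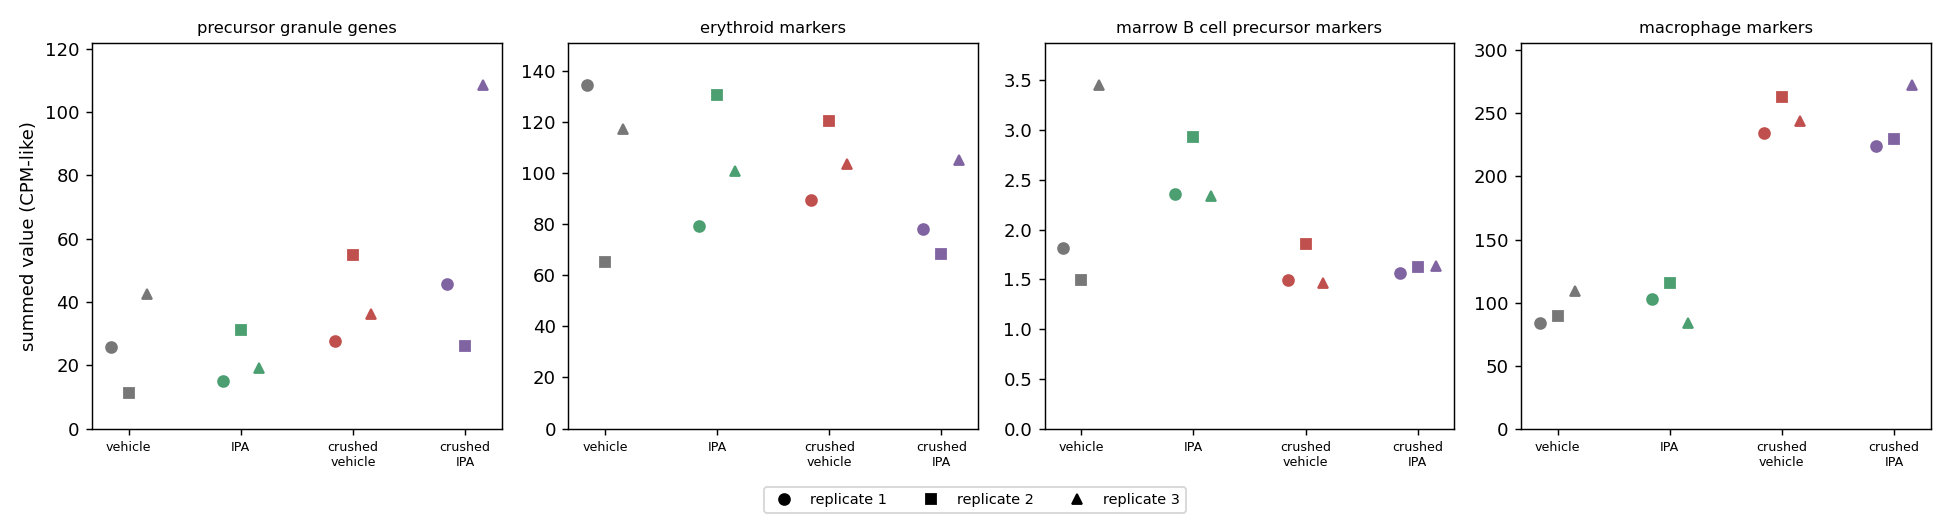
Summed value (CPM-like, linear axes from 0) of precursor granule genes, erythroid markers, marrow B cell precursor markers and macrophage markers in each of the 12 libraries, with marker shape giving the replicate. Macrophage sums separate crushed (224.4 to 272.9) from intact (83.7 to 115.3) libraries, whereas erythroid sums (65.1 to 134.7) do not, and the lowest erythroid library of each group is also its lowest for precursor granule genes.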

How the data were processed

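RNA was measured in 12 libraries of pooled dorsal root ganglia. Per the labels' protocols, libraries from poly(A) RNA kept strand and were sequenced in paired reads of 75 bases. The submitters' processing notes list STAR (2.7.0), FastQC (0.10.1), R (3.5.0), limma (3.38.3), edgeR (3.24.3) and mm10, with no role. How reads were counted (tool, annotation, strand) is not given in the sources used here. As deposited by the authors, the table is called FPKM, yet its values are CPM in kind: in every library 100.0% of them were whole multiples (tolerance 1e-06) of a step common to all genes. Reads could therefore be recovered. Precision is limited by 3 libraries per group and, for low genes, by the reads behind each value.

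A pseudocount of 0.5 was added before the log2 was taken. Genes reaching 0.5 in 3 or more libraries entered the test (15603), and limma-trend (limma 3.58.1, R 4.3.3) was run once over the 4 groups, with 8 residual degrees of freedom and a Benjamini-Hochberg adjusted p under 0.05. The pseudocount makes fold changes of low genes too small. The fit was tested on simulated counts. Variation beyond counting error was set to the same low level for all genes, below that of most members. The simulation therefore does not measure power for the members. Alternatives were other pseudocounts, filters and scaling, a replicate block, array weights, edgeR 4.0.16 and DESeq2 1.42.0 on recovered reads, and each library left out. Replicates are separate pools, per the labels. The members and gene lists were chosen with earlier results of these data known. Genes named from a list come from the 3 with the smallest p for crush and the 3 highest in value, plus Cebpe, Cxcl1, Cxcl2, Csf3, Cxcr2, Elane and Ctsg. Ly6 relatives, Plppr3, Ms4a3, the ratios of Ly6g and the Ly6g promoter were added after their values were seen. Older symbols were matched through Ensembl IDs.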

Additional observations from a re-analysis of the deposited data

How the results depend on the processing

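Ly6g kept its direction and its call in the crush comparisons under all 9 alternatives and all 12 fits with 1 library left out, and no alternative called a member for IPA or the interaction. Members called for crush averaged over treatments went from 8 to 4 with no filter, 9 with edgeR (Csf3r added), 9 with array weights (Mpo added) and 8 with DESeq2 (Csf3r called, Camp not), and were 4 to 9 with 1 library left out. Under vehicle they went from 1 to 3 with array weights and were 1 to 2 with 1 library left out. Under IPA they went from 5 to 1 with no filter and 3 with array weights, and were 1 to 8 with 1 library left out. All genes called for IPA without crush went from 0 to 3 with DESeq2 and 3273 with array weights; for IPA after crush from 0 to 15 and 324, and were 0 to 1 with 1 library left out; for the interaction from 0 to 3 and 2. The default estimate of the array weights did not converge, and a gene-by-gene estimate was chosen after that was seen. With array weights Lcn2 without crush was at 0.0041. IPA after crush then came to -0.19 for S100a8, -0.43 for S100a9, -0.17 for Csf3r, -0.18 for Lcn2, -0.32 for Camp, -0.52 for Ngp and -0.46 for Ltf. The interaction came to -0.10 for S100a9, -0.18 for Lcn2, -0.23 for Camp and Ngp, -0.35 for Ltf, -0.26 for Prtn3 and -0.32 for Mpo with array weights, and to 0.0083 for Csf3r with DESeq2. The cause was not tested. Some uncalled estimates also changed sign with 1 library left out. For IPA after crush they were -0.15 to 0.19 for Csf3r, -0.048 to 0.84 for Lcn2, -0.21 to 0.89 for Ltf, -0.22 to 0.047 for Ly6g, -0.23 to 0.85 for Ngp, -0.21 to 0.82 for S100a8 and -0.31 to 0.67 for S100a9. For IPA without crush they were -0.56 to 0.23 for Camp, -0.020 to 0.19 for Csf3r, -0.37 to 0.28 for Lcn2, -0.60 to 0.22 for Ltf, -0.0069 to 0.10 for Ly6g, -0.16 to 0.63 for Mpo, -0.86 to 0.11 for Ngp and -0.77 to 0.053 for S100a9. Interaction estimates were -0.24 to 0.10 for Csf3r, -0.017 to 0.87 for Lcn2, -0.030 to 1.07 for Ltf, -0.26 to 0.0049 for Ly6g, -0.077 to 0.71 for Mpo, -0.091 to 0.50 for Prtn3 and -0.030 to 0.99 for S100a9, and Mpo under vehicle was at -0.16 to 0.64 for crush.

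Same-numbered replicates did not pair: their deviations from group means correlated at -0.25 to 0.29, with 4 of 18 pairs over 0.1. With the replicate number as a block, 8 members were called for crush averaged over treatments, 1 under vehicle and 6 under IPA, where Camp (1.04, limma adjusted p = 0.0444) joined the others. Depth limits Ly6g in intact libraries, where it rested on 8 to 14 reads.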

Other observations

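Further marker lists stood as follows after crush in the limma fit. In that fit 30.6% of all genes tested were called lower and 28.8% higher. Of 5 tested eosinophil, basophil and mast cell markers 2 fell, the mast cell proteases Cpa3 (-0.32 ± 0.10) and Mcpt4 (-0.29 ± 0.12), while the eosinophil granule gene Prg2 was at -0.0038 ± 0.23 and not called. The count was 1 to 2 with 1 library left out, and 0 under vehicle alone or IPA alone. Prg2 nonetheless had r of 0.98 with Ngp across libraries once group means were removed, a correlation given as a description. It was the highest of the 9 genes in this list, whose r had a median of 0.17 and a lowest value of -0.11, with 3 of 9 over 0.5. Of 6 tested bone markers 3 fell: Acan (-0.49 ± 0.10), Dmp1 (-0.23 ± 0.08) and Ibsp (-0.22 ± 0.06), a count of 2 to 3 with 1 library left out. Of 5 tested platelet and megakaryocyte markers 3 rose, namely Pf4, Gp1bb (1.18 ± 0.09) and Itga2b (0.26 ± 0.07).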
